A study of Aedes albopictus with 6 samples.

Results

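Vitellogenins are the large yolk precursor proteins of egg-laying animals. In a female mosquito they are made mainly by the fat body after a blood meal, under the control of amino acid sensing, juvenile hormone and ecdysteroids. They are secreted into the hemolymph and taken into the growing oocyte by the vitellogenin receptor and clathrin-coated pits. The fat body is therefore the tissue known for vitellogenin messenger RNA, while the ovary is known for the receptor and the stored protein.

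The 3 genes described here are those of *Aedes albopictus*, the Asian tiger mosquito, that the deposited count table lists under the symbols LOC109413684, LOC109413685 and LOC109413693. They were chosen by symbol, out of 23529 genes with values, and carry the description vitellogenin-A1 or vitellogenin-A1-like. The libraries are from ovaries, as 3 control libraries and 3 libraries labelled as overexpressing the PIWI-interacting RNA (piRNA) Aalpi18529. Per the series' design text a mimic of the piRNA was used and the interest lay in ovarian development once females had fed on blood. The sources used here do not give the strain, the age, the hours since feeding, the number of females per library or the treatment of the controls. Nor do the labels say whether libraries came from separate cages or pools, so the p-values measure only the spread between these libraries, which may be technical. The ovary label was met by the germ line and eggshell markers. The 51 such genes with values summed to 18994 to 19103 CPM (library-scaled counts) in the controls and 18953 to 19331 CPM with overexpression. Library totals lay between 15719412 and 16465531 estimated counts.

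Vitellogenin-A1 RNA was scarce in 5 of the 6 ovary libraries and far higher in overexpression library 1. The summed level of the 3 genes was 2.65, 2.93 and 1.88 CPM in control libraries 1, 2 and 3. It was 47.7 CPM in overexpression library 1 and 2.13 and 2.25 CPM in overexpression libraries 2 and 3. The groups therefore overlapped, with 2 overexpression libraries inside the range of the controls and the other one 16.3-fold above the highest control. Overexpression library 1 held 91.6% of the summed CPM of its group. In bulk RNA, more cells of a type and more RNA per cell cannot be told apart.

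LOC109413684 (gene ID 109413684, scaffold NW_021837045.1, positions 78874848 to 78881692), described as vitellogenin-A1-like, was the nearest to silent outside that library. Its estimated counts were 4, 2 and 1 in control libraries 1, 2 and 3, and 305, 3 and 0 in overexpression libraries 1, 2 and 3. The 305 counts have an exact Poisson interval of 272 to 341 (95%), which covers counting error only. The level in overexpression library 1 was 75.3-fold above the next highest library, control library 1, whose 4 counts have an interval of 1.09 to 10.2. The 0 in overexpression library 3 allows up to 3 counts. Group means were 0.145 ± 0.0978 CPM over the controls and 6.39 ± 10.9 CPM over the overexpression libraries (SD, n = 3).

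LOC109413685 (gene ID 109413685, same scaffold, positions 78731421 to 78737966), described as vitellogenin-A1, was read at a low level in every library. Its counts were 25, 22 and 12 in the controls and 175, 16 and 14 with overexpression. Overexpression library 1 stood 6.91-fold above the next highest library, which was control library 1. Overexpression libraries 2 and 3 lay between control libraries 2 and 3. Group means were 1.21 ± 0.438 CPM over the controls and 4.26 ± 5.74 CPM over the overexpression libraries (SD, n = 3).

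LOC109413693 (gene ID 109413693, same scaffold, positions 78206945 to 78213714), also described as vitellogenin-A1, had counts of 13, 24 and 18 in the controls and 286, 15 and 21 with overexpression. Overexpression library 1 stood 12.2-fold above control library 2, the next highest. Overexpression libraries 2 and 3 lay within the range of the controls. Group means were 1.12 ± 0.324 CPM over the controls and 6.70 ± 9.62 CPM over the overexpression libraries (SD, n = 3). Each of the 3 genes thus showed the same order, overexpression library 1 above the 5 others, whose values interleaved between the groups.

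**Figure D1:**
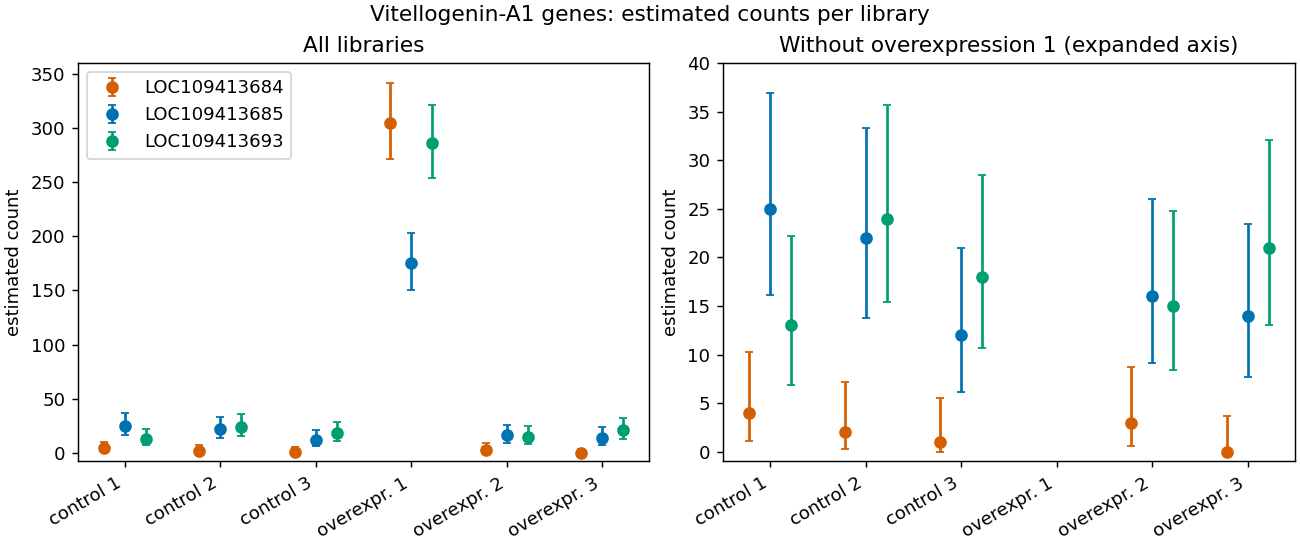
Estimated counts (y axis) of the 3 vitellogenin-A1 genes in each ovary library (x axis), with exact 95% Poisson intervals as bars; the right panel leaves out overexpression library 1 and expands the axis. Overexpression library 1 held 305, 175 and 286 counts of LOC109413684, LOC109413685 and LOC109413693, while no gene passed 25 counts in any other library.

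The 3 genes did not keep their proportions in overexpression library 1. LOC109413684 gave 39.8% of the 766 vitellogenin-A1 counts there (exact binomial 95% interval 36.3% to 43.4%). In the 3 controls together it gave 5.79% of 121 counts (2.36% to 11.6%). It gave 8.82% of 34 counts in overexpression library 2 (1.86% to 23.7%), and 0 of 35 in overexpression library 3, which allows a share of up to 8.57%. The interval of overexpression library 1 lay above that of each other library, so the difference is beyond counting error, although it rests on 1 library. The share of LOC109413685 was 22.8% in overexpression library 1 (19.9% to 26.0%) and 48.8% in the pooled controls (39.6% to 58.0%). Taken singly, control library 3 (21.85% to 57.8%) and overexpression library 3 (23.9% to 57.9%) had intervals that overlapped that of overexpression library 1. Those of control libraries 1 and 2 and overexpression library 2 lay above it. LOC109413693 gave 37.3% in overexpression library 1 (33.9% to 40.9%) and 45.5% in the pooled controls (36.4% to 54.8%), which overlap.

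**Figure D2:**
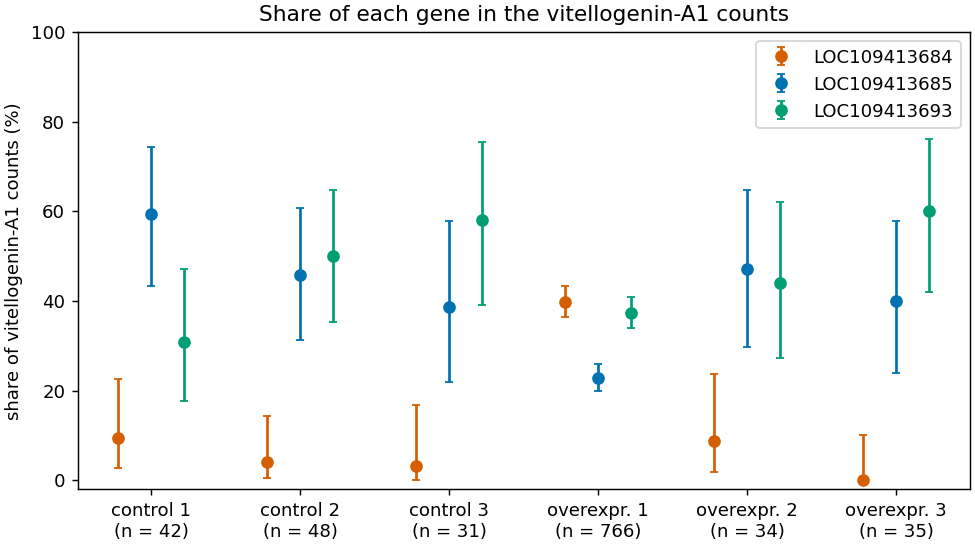
Share of each gene in the summed vitellogenin-A1 counts of a library (y axis, percent) by library (x axis, with the summed count as n), with exact 95% binomial intervals as bars. LOC109413684 gave 39.8% in overexpression library 1 and at most 9.52% in the 5 other libraries.

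Levels of different genes were compared per kilobase of annotated gene span, introns included. In overexpression library 1 these were 2.77 CPM per kilobase for LOC109413684, 2.63 for LOC109413693 and 1.66 for LOC109413685. LOC109413684 and LOC109413693 did not differ there beyond their counting intervals. In the controls LOC109413684 was the lowest of the 3 in each library, at 0.00885 to 0.0368 CPM per kilobase. LOC109413685 and LOC109413693 changed places between libraries, at 0.111 to 0.241 and 0.121 to 0.216 CPM per kilobase in the controls.

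The comparison the design implies, overexpression against control, was fitted over all genes with edgeR's quasi-likelihood test. LOC109413685 and LOC109413693 were among the 15540 genes tested. LOC109413684 missed the filter on low counts, so its fit comes from the table without that filter. Of the 2 tested genes, 0 passed a Benjamini-Hochberg adjusted p of 0.05, where 0.0129% of all genes tested passed (2 genes). At an unadjusted p under 0.05 there was 1, LOC109413693, against a background of 4.92% in either direction and 2.42% for rises. None of the 3 genes had groups that did not overlap, against 10.4% of genes tested.

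The fitted log2 fold change was 1.81 ± 0.93 (SE) for LOC109413685, with an unadjusted p of 0.0853 and an adjusted p of 0.963 by edgeR. For LOC109413693 it was 2.57 ± 1.05, with an unadjusted p of 0.0396 and an adjusted p of 0.963 by edgeR. For LOC109413684, without the filter, it was 5.40 ± 1.77, with an unadjusted p of 0.0115 and an adjusted p of 0.913 by edgeR. All 3 differences thus point to higher levels with overexpression, and none passed the limit over all genes.

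Because reads can be divided among similar genes, the 3 were also fitted as 1 summed gene. The sum had a log2 fold change of 2.80 ± 1.14 (SE), an unadjusted p of 0.038 and an adjusted p of 0.962 by edgeR. On log2(CPM + 0.1) the difference was 1.31, with p = 0.8 by exact permutation (two-sided), where 0.1 is the smallest that 3 libraries against 3 allow. The direction rested on overexpression library 1. Without it the log2 fold change of the sum was -0.18 ± 0.30 (SE). It was -0.56 ± 1.23 for LOC109413684, -0.35 ± 0.43 for LOC109413685 and 0.02 ± 0.40 for LOC109413693. Leaving out any other single library left the sum between 2.63 and 3.33.

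**Figure D3:**
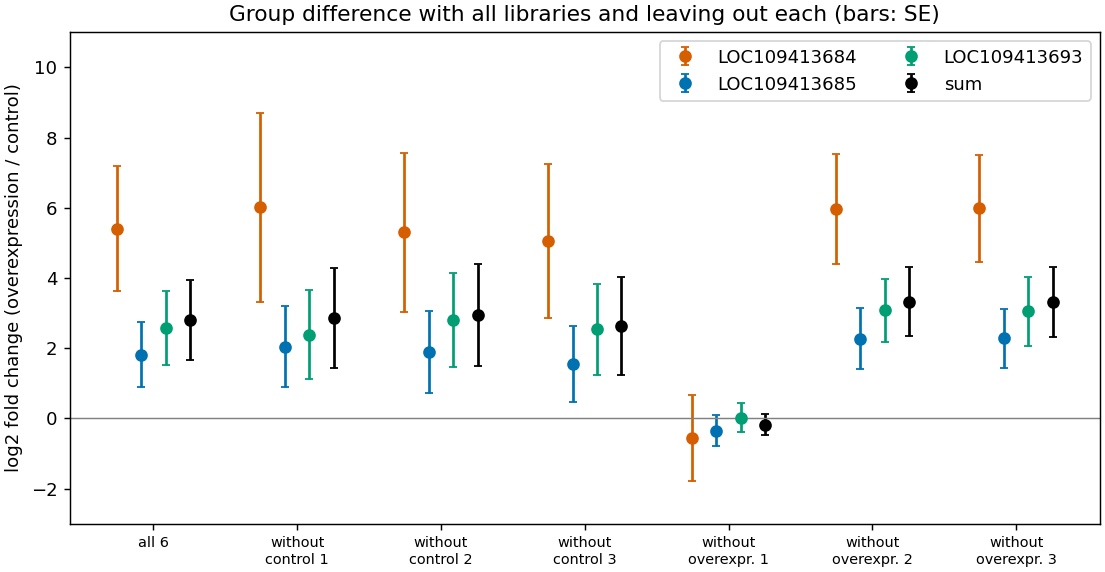
Log2 fold change of overexpression over control (y axis, bars are SE from edgeR) for the 3 genes and their sum, with all 6 libraries and with each left out in turn (x axis). With overexpression library 1 left out, the sum moves from 2.80 to -0.18, while it stays between 2.63 and 3.33 when any other library is left out.

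DESeq2, fitted as an alternative, measures how much a single library moves a gene's estimate by Cook's distance. It gave its largest distance in overexpression library 1 for all 3 genes, at 29.3 for LOC109413684, 20.9 for LOC109413693 and 16.6 for LOC109413685, against a default limit of 18. The Wald p was therefore withheld by the program (NA) for LOC109413684 and LOC109413693. It was also withheld for the sum, fitted as 1 gene, at a distance of 26.3. Of 23446 genes fitted, 9 passed that limit, 3 of them in overexpression library 1. LOC109413684 had the largest distance of the 9. LOC109413685 kept an unadjusted DESeq2 p of 0.115, with a log2 fold change of 1.81 ± 1.15 (SE).

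The same was seen in the spread of single libraries over all genes, given as a description since the library was singled out after its values were seen. Among 14996 genes with at least 20 counts in their highest library, 14 (0.0934%) stood at least 4-fold higher in overexpression library 1 than in every other library, counting a lower library as having at least 3 counts. The 3 vitellogenin-A1 genes were among these 14. The other libraries each held 1 to 11 such genes. By this fold the vitellogenin-A1 genes ranked 1 (LOC109413684), 12 (LOC109413693) and 25 (LOC109413685) of all 14996. LOC109413684 met the minimum of 20 counts through overexpression library 1 alone. Where every lower library held 0 the fold is a lower bound, so rank 1 depends on the floor of 3 counts. An example is LOC115261053, with 210 counts in control library 3 and 0 in each other library.

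**Figure D4:**
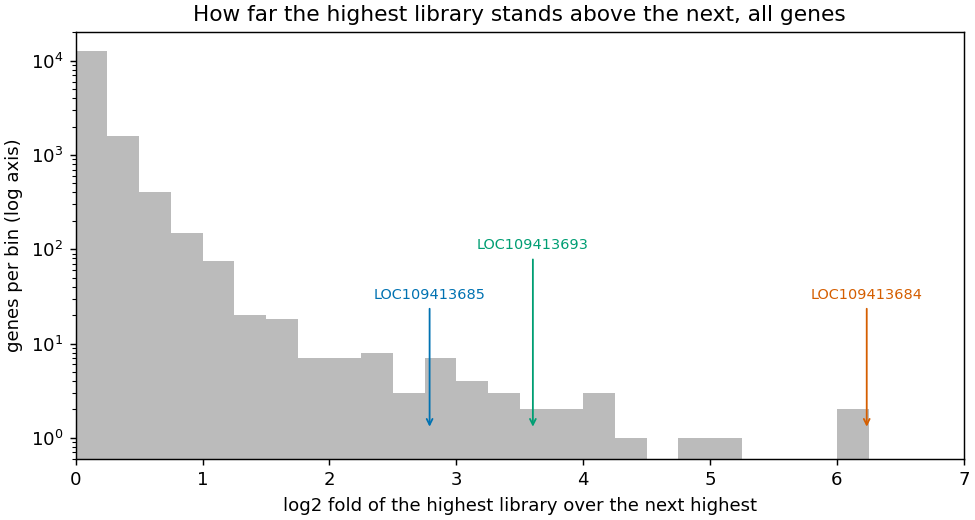
Number of genes (y axis, log scale) by the log2 fold of their highest library over the next highest (x axis), for 14996 genes with at least 20 counts in their highest library. The 3 vitellogenin-A1 genes lie in the sparse right tail, and LOC109413684, at 75.3-fold, has the largest fold of all these genes.

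The 3 genes lie on the same scaffold within 674748 bases. A gap of 517706 bases separates LOC109413693 from LOC109413685, and 136881 bases separate LOC109413685 from LOC109413684. All 3 matched RefSeq's AalbF5 annotation by gene ID, where they keep the same order on a single chromosome. Each sits inside the span of a longer gene in the deposited table. LOC109413684 and LOC109413685 lie within LOC109622416, described as the secreted protease ADAMTS9 ("A disintegrin and metalloproteinase with thrombospondin motifs 9", positions 78361319 to 79096348). LOC109413693 lies within LOC109413694, described as groucho-like, a transcriptional co-repressor (positions 77642386 to 78288884).

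These enclosing genes did not share the level of overexpression library 1. LOC109622416 had counts of 133, 143 and 130 in the controls and 128, 87 and 108 with overexpression. LOC109413694 had 1126, 1319 and 1232 in the controls and 1157, 1255 and 1137 with overexpression. The gene next to LOC109413685, LOC109413687 (TRIM37-like, a ubiquitin ligase, 470 bases away), had 9, 9 and 13 counts in the controls and 10, 5 and 5 with overexpression. The sources used here do not say whether reads were counted by strand, so reads from exons that overlap on opposite strands could not be told apart. The counts of all 3 vitellogenin-A1 genes were whole numbers in every library (within 0.001), which held for 35.7% of genes, so no fractional reads were shared with other genes at the precision deposited.

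A further 7 rows carry numbered vitellogenin names without A1, shared with the lipase-related yolk proteins of *Drosophila melanogaster*. Together they stood at 105 to 122 CPM in the controls and 113.8 to 114.0 CPM with overexpression. The most abundant, LOC109622074 (vitellogenin-1-like), had 55.9 ± 1.4 CPM over the controls and 54.6 ± 2.68 CPM over the overexpression libraries (SD, n = 3). LOC109413933 (vitellogenin-1) had 44.7 ± 6.15 and 48.9 ± 3.89 CPM. None of the 7 was highest in overexpression library 1. Their edgeR adjusted p lay above the limit in the 6 that were tested.

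Proteins that travel with vitellogenin were examined next. In *Aedes aegypti*, vitellogenic carboxypeptidase and vitellogenic cathepsin B are made by the fat body and stored in the yolk, and lipophorin carries lipid to the ovary. A list of 6 such genes, by the names vitellogenic carboxypeptidase and apolipophorin, had 0 members called by edgeR, DESeq2 or limma-voom, 5 fitted higher and 1 lower, with a median log2 fold change of 0.08 against 0.00 over all genes tested. At an unadjusted p under 0.05 there were 0 by edgeR, 0 by DESeq2 and 1 by limma-voom, which was fitted higher. Without overexpression library 1 the median by edgeR was -0.03, with 0 called and 1, fitted lower, at an unadjusted p under 0.05.

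Of these 6 genes, 3 were highest in overexpression library 1, where 17.6% of all genes tested were. LOC109419712, a vitellogenic carboxypeptidase, stood at 11.02, 22.76 and 17.38 estimated counts in control libraries 1, 2 and 3 and at 41.4, 3.26 and 7.11 in overexpression libraries 1, 2 and 3. LOC109399794, described as apolipophorins, the protein core of lipophorin, had 82, 40 and 113 counts in the controls and 130, 65 and 56 with overexpression. The smaller lipophorin protein, apolipophorin-3-like LOC109408437, had 2359, 1969 and 2039 counts in the controls and 2469, 2326 and 2299 with overexpression. These excesses were small beside those of the vitellogenin-A1 genes. The other 3 carboxypeptidase genes were highest in control library 3 or overexpression library 3.

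A cathepsin B-like gene, LOC109413157, was noticed after its values were seen and belongs to no list. It had 45 counts in overexpression library 1 and 0 in each of the 5 other libraries. Its level there was at least 15.0-fold higher than in each of them, taking 3 counts in a library of mean size as the most that a 0 allows, the same floor as for the single-library folds above. Whether it encodes the yolk-stored cathepsin B was not tested. Among the other 6 cathepsin B genes with values, 3 had more than 100 counts in each control. In overexpression library 1 they were at 1560 (LOC109412731), 467 (LOC115259469) and 1861 (LOC109411856) counts. The other libraries ranged from 133 to 3480, from 359 to 577 and from 18.7 to 2905 counts. The lowest and highest values of each lay in overexpression libraries 2 and 3. Of the 3 scarcer genes, each described as cathepsin B-like cysteine proteinase 3, 2 were highest in overexpression library 1. LOC115259783 had 31.16 estimated counts there and 6.82 to 15.2 in the others, and LOC115259770 had 2.61 there and 0 in the others. LOC109412730 was highest in control library 1, at 9.26, and had 2.58 in overexpression library 1.

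**Figure D5:**
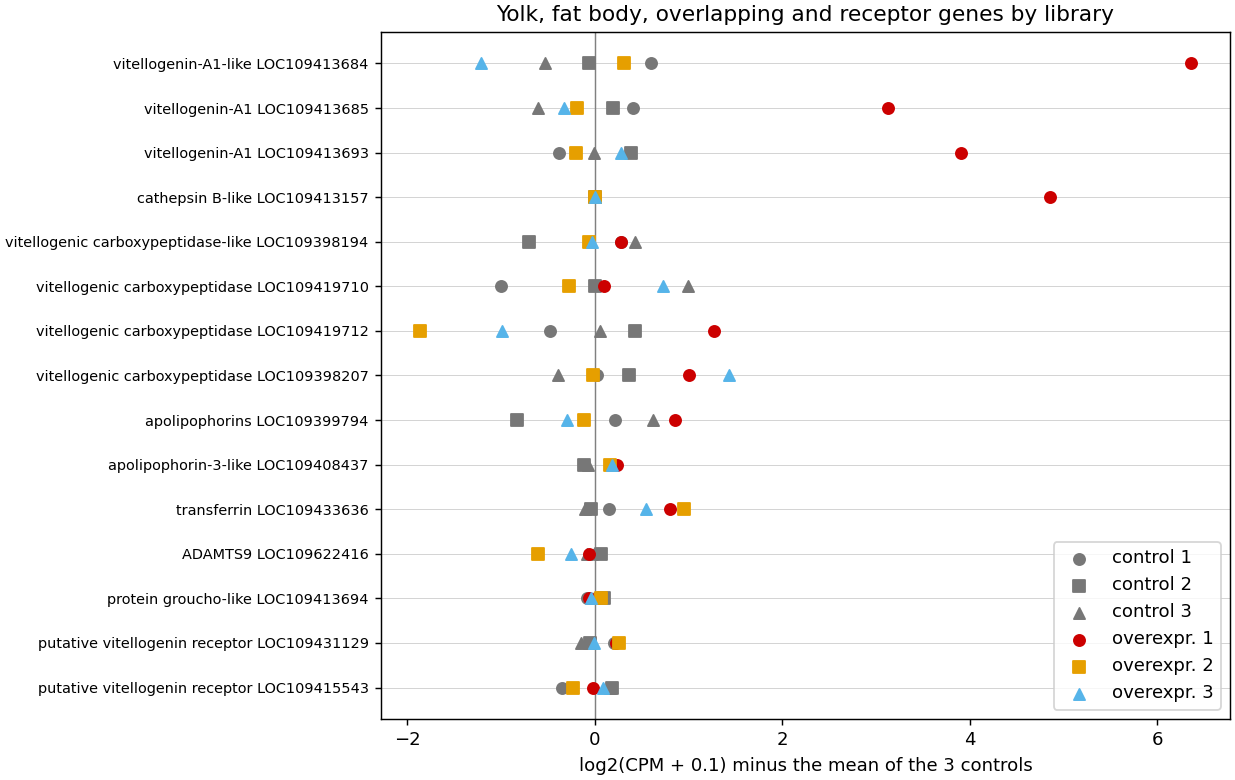
Level of each gene in each library as log2(CPM + 0.1) minus the mean of the 3 controls (x axis), for the vitellogenin-A1 genes, cathepsin B-like LOC109413157, vitellogenic carboxypeptidases, apolipophorins, transferrin, the enclosing genes and the vitellogenin receptors (y axis). Overexpression library 1 (red) lies far to the right for the 3 vitellogenin-A1 genes and LOC109413157, and near the other libraries for the enclosing genes and the receptors.

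Markers of other tissues were measured beside this result. The 26 fat body genes with values (hexamerins, transferrins, apolipophorins and vitellogenic carboxypeptidases, by name) summed to 276.4 to 301.7 CPM in the controls and 302.2 to 317.7 CPM with overexpression, adjoining but not overlapping, with the highest sum in overexpression library 1. The melanotransferrin-like gene LOC109411146, caught by its name, gave 138 to 155 CPM of each sum. Without it, left out after its values were seen, the sums were 163.6, 133.0 and 143.2 CPM in control libraries 1, 2 and 3. They were 176.8, 160.9 and 163.7 CPM in overexpression libraries 1, 2 and 3, so that the groups overlapped. Most of each of these sums came from apolipophorin-3-like LOC109408437, at 120 to 149 CPM in the controls and 146 to 154 CPM with overexpression. Of the 26, 6 (23.1%) were highest in overexpression library 1 and 0 were called, of 11 tested by edgeR and by limma-voom and 26 by DESeq2. At an unadjusted p under 0.05 there was 1 by edgeR, 1 by DESeq2 and 2 by limma-voom, where 4.92% of all genes tested passed by edgeR. Hexamerins, the larval storage proteins, summed to 4.36 CPM in overexpression library 1 and 3.15 to 4.30 CPM in the other libraries. A further 4 fat body rows were blank in all libraries and had been left out beforehand. Of the 26 with values, 7 were at 0 in at least 1 library. Transferrin LOC109433636, an iron carrier of the hemolymph, had 29, 26 and 25 counts in the controls and 47, 52 and 38 with overexpression, which edgeR fitted at 0.81 ± 0.24 on the log2 scale (SE, adjusted p = 0.963).

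The hemocyte list of 103 genes, mostly phenoloxidase-activating proteases, summed to 662 CPM in overexpression library 1 and to 640 to 685 CPM in the others. Its 20 phenoloxidases, hemocyte enzymes of melanization and not a list of their own, summed to 9.78 CPM there and to 6.17 to 8.49 CPM in the others. The midgut list of 31 genes, by the names trypsin-like and peritrophin, summed to 121 CPM there and to 144 to 170 CPM in the others, most of it from LOC109426828, a neurotrypsin-like gene named for a protease of neurons. Without that gene, left out after its values were seen, the sums were 7.63 CPM there and 4.84 to 5.93 CPM in the others. Its trypsin-like and chymotrypsin-like genes, 15 in all, summed to 72.6 estimated counts there and to 37.0 to 47 in the others. Of these counts, LOC109398031 (chymotrypsin-like protease CTRL-1) alone gave 44.4 there and 14.6 to 32.7 in the others. Only 4 of the 15 were highest in overexpression library 1, and 11 were at 0 in at least 1 library. The list does not take in trypsins under other names, such as trypsin 3A1 and trypsin-1, which were highest in control library 3. The 82 genes of the muscle list summed to 2518 to 2527 CPM in the controls and 2391 to 2424 CPM with overexpression. These sums did not overlap, and the lowest was in overexpression library 1. They take in LOC109406436, a myosin heavy chain described as non-muscle and caught by its name. Its level was 319 to 378 CPM in the controls and 351 to 370 CPM with overexpression. By edgeR, 0 genes of the hemocyte, midgut, muscle and ovary lists were called. At an unadjusted p under 0.05 there were 5 of 52, 1 of 4, 6 of 56 and 3 of 43 tested. Over all genes tested the share was 4.92%. The 5 hemocyte genes were all lower with overexpression, as were 5 of the 6 muscle genes. The midgut gene was higher, as were 2 of the 3 ovary genes. The part these markers have in the vitellogenin-A1 level was not tested, nor was whether fat body tissue came with the ovaries of overexpression library 1.

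The uptake machinery was abundant and level in the same libraries. The 2 genes described as putative vitellogenin receptor, the oocyte receptor that binds yolk precursors, had 781 and 643 CPM in overexpression library 1. LOC109431129 averaged 671 ± 88.2 CPM over the controls and 747 ± 74.4 CPM over the overexpression libraries (SD, n = 3), and LOC109415543 659 ± 129 and 628 ± 70.2 CPM. Over 14 uptake genes, including clathrin chains and the AP-2 adaptor, 0 were called by edgeR, DESeq2 or limma-voom. Of the 14, 1 had an unadjusted edgeR p under 0.05, where 4.92% of all genes tested did. By edgeR 9 were fitted higher and 5 lower, with a median log2 fold change of 0.02. A clathrin heavy chain gene, LOC109416205, had 270 ± 19.9 CPM over the controls and 292 ± 8.52 CPM over the overexpression libraries.

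Genes named for the hormone and nutrient signals that act on vitellogenin in the fat body were also counted. Of 34 with values 28 were tested by edgeR and 0 called, 15 fitted higher and 13 lower, with a median log2 fold change of 0.02. The ecdysone receptor gene LOC109414899 had 99.5 ± 5.76 CPM over the controls and 95.4 ± 4.1 CPM over the overexpression libraries (SD, n = 3). S6 kinase LOC109418942, an effector of amino acid sensing through TOR, had 244 ± 13.0 and 251 ± 8.5 CPM. The name S6 kinase also took in LOC109420217 (S6 kinase alpha-5-like) and LOC109405847 (S6 kinase delta-1), whose part in these signals was not tested. At an unadjusted edgeR p under 0.05 there were 0 of the 28, and DESeq2 (34 tested) and limma-voom called 0.

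Finally, the genes whose pattern over the 6 libraries was most like the vitellogenin-A1 sum were taken by Pearson's r of log2(CPM + 0.1), among 2666 tested genes that varied by at least 1 on that scale. The coefficients describe 6 libraries that include 1 far point. LOC115253717, uncharacterized, came nearest with r = 0.97, with estimates of 186, 317 and 265 reads in control libraries 1, 2 and 3 and of 1214, 237 and 238 in overexpression libraries 1, 2 and 3. It was followed by LOC109417404 (uncharacterized, 0.95), LOC109399457 (homeobox protein ceh-31, 0.94), LOC115261582 (uncharacterized, 0.94) and LOC109429424 (sister of odd and bowel-like, 0.94). The coefficient does not measure the size of a rise. In overexpression library 1 these had 32.0, 21, 35.8 and 230 estimated counts, in that order. In the controls they had 14 to 15, 7 to 11, 14 to 18 and 90.5 to 119. Over the 5 libraries without overexpression library 1 the 5 coefficients ranged from -0.83 to 0.82. Among the vitellogenin-A1 genes themselves r was 0.93 to 0.98 over 6 libraries and -0.69 to 0.69 over those 5.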

How the data were processed

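Estimated counts for each gene, headed as read counts per the file headers, were deposited in 1 table, with decimals and no scaling between libraries. HISAT and Bowtie2 are named in the submitters' processing notes. The sources used here do not give the counting program, genome build or filters. Of 34479 rows, 10950 were blank in all libraries and left out. Groups follow the genotype labels, and 0 count columns lacked a sample.

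Values were rounded, filtered with filterByExpr (15540 genes kept), scaled by TMM and tested with edgeR 4.0.16 (R 4.3.3, quasi-likelihood, no covariate, Benjamini-Hochberg limit 0.05). The SE is the fold change over the root of F. CPM use TMM-scaled totals. Alternatives were other scalings, no filter, DESeq2 1.42.0, limma-voom (limma 3.58.1), a replicate block and leaving out each library. The pipeline was tested on simulated data. Permutation tests used scipy 1.17.1.

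The members, 8 name-pattern lists and tests were chosen with earlier results of these data known. The sums of hexamerins, phenoloxidases and trypsin-like and chymotrypsin-like genes are parts of those lists and were not among the 8. Named were the members, other vitellogenin rows, genes within 50 kb or enclosing a member, the 5 most alike genes and abundant members of each list; others are marked as chosen after their values were seen. Patterns also caught unrelated names (melanotransferrin, neurotrypsin, non-muscle myosin heavy chain). No sequence is printed.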

Additional observations from a re-analysis of the deposited data

How the results depend on the processing

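Over 93 recomputed values, 82 were alike in direction and call or, for a count, within 1.5 times, 4 changed direction and 7 counts moved. A p withheld by DESeq2 was taken as not called. LOC109413693 without overexpression library 1, at a log2 fold change of 0.02, was taken as alike in direction. All 4 changes of direction came from leaving out overexpression library 1. When each library was left out in turn, the log2 fold change ranged from -0.56 to 6.02 for LOC109413684, from -0.35 to 2.29 for LOC109413685 and from -0.18 to 3.33 for the summed vitellogenin-A1 genes, and the difference in log2(CPM + 0.1) of the sum ranged from -0.15 to 2.06 (exact permutation p 0.6 to 1; the smallest that 2 against 3 allow is 0.2). LOC109413693 ranged from 0.02 to 3.08. No member was called in any alternative (lowest adjusted p 0.787). DESeq2 withheld its p for 2 of the 3 members and for the sum. limma-voom gave smaller log2 fold changes, 1.74 for LOC109413684, 0.90 for LOC109413685, 1.36 for LOC109413693 and 1.33 for the sum; the cause was not tested. Same-numbered libraries were not treated as paired, since no pairing is stated. Their deviations from the group means hardly correlated (-0.01, 0.03 and 0.01), which cannot show whether they were prepared together. With the replicate number as a block the sum had a log2 fold change of 1.53 and 0 genes were called. Over all genes 2 were called, against 15 by the DESeq2 Wald test and 0 to 2 when 1 library was left out. List counts without overexpression library 1, by DESeq2 and by limma-voom, alternatives chosen after seeing the data, were 0 called in all 8 lists except 2 muscle genes by DESeq2 (LOC109397705 and LOC109418939). Outside overexpression library 1 the members had 0 to 25 counts, and the SE of the sum there was 0.30 on the log2 scale.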

Other observations

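Single-library excess was also seen in another library and other genes, named after their values were seen. Control library 3 held 182 counts of LOC109411296 (trypsin 3A1) and 115 of LOC109420035 (trypsin-1), digestive proteases of the mosquito midgut. LOC109411296 had 5 and 4 counts in control libraries 1 and 2 and 10, 3 and 0 in overexpression libraries 1, 2 and 3. LOC109420035 had 0 and 4 counts in those controls, and 30, 0 and 1 with overexpression. Both passed the Cook's distance limit of 18 in control library 3, at 23.2 and 20.7. The 15 trypsin-like and chymotrypsin-like genes of the midgut list did not share this. They summed to 2.24 CPM in control library 3, their lowest, and to 2.33 to 4.52 CPM in the other libraries.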
